A study of Homo sapiens with 6 samples.

Results

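The MYC, MAX and MXD network is a family of transcription factors, and 10 of its genes were followed in MDA-MB-231 cells after silencing of the kinase NEK2: MYC, MYCN, MAX, MXD1, MXI1, MXD3, MXD4, MNT, MGA and MLX. They were found by gene symbol, as a list drawn up with earlier results of these data known, and each had 1 row among the 74852 rows of the gene table. The MXD4 row also carries the microRNA symbol MIR4800, and its reads cannot be told apart from those of MIR4800. MDA-MB-231 is a human triple-negative breast cancer cell line with a mesenchymal phenotype. Cells of 1 group received pooled siRNAs against NEK2 (si-NEK2) and those of the other received pooled control siRNAs (si-CTRL), and all of them came from the parental line with no other alteration named. The sample records place the harvest 24 h after the second transfection, whereas the methods give another interval. PolyA-selected RNA of 3 samples per group was sequenced. Since each group rests on 1 siRNA pool, loss of NEK2 and any other effect of the pool cannot be told apart. The si-CTRL records refer to further sample records, and it is not stated that control and silenced libraries were prepared together, so that a difference in preparation and the silencing cannot be told apart either. The records do not say whether the 3 samples of a group were separate cultures, so that the p-values measure the spread between these samples, which may be technical.

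MYC, MYCN and the other proteins of the network share a basic helix-loop-helix leucine zipper, through which nearly all of them pair with MAX and bind the E-box motif CACGTG. Pairs of MYC and MAX recruit coactivators and raise transcription of genes for ribosome assembly, nucleotide synthesis and cell cycle entry, whereas MXD proteins and MNT compete for MAX and bring the SIN3 and histone deacetylase corepressor to the same motif, and MGA joins MAX in a variant Polycomb repressive complex. MLX is a MAX-like factor that pairs with MXD1, MXD4, MNT and the glucose-responsive factor MLXIP. MYC is often amplified or highly active in triple-negative breast cancer.

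The motif that these factors bind is shown first, as it stands in the promoters of the members that hold it and of a pair of MYC target genes described below. RefSeq (GRCh38.p14) gave the sequence from 250 bases before to 50 bases after the start of 35116 genes, of which 2548 (7.26%) hold CACGTG. MYC has no entry. Of the 9 members with an entry, 3 (33.3%) hold it, and the windows of MYCN, MAX, MXD1, MXD3, MXI1 and MGA do not hold these letters. A single start per member was searched, and any other start was not. CACGTG reads the same on both strands. The windows below run 5′ to 3′ on the strand of the gene, with each copy in capitals. MXD4 (chr4:2262322-2262359, minus strand) has its copy 238 bases before the start, MNT (chr17:2401228-2401273, minus strand) 193 bases before it and MLX (chr17:42567030-42567075, plus strand) 50 bases before it. LDHA (chr11:18394358-18394501, plus strand) has 2 copies, at 185 and 87 bases before the start, and CDK4 (chr12:57752386-57752546, minus strand) has 3, between 216 and 101 bases before it. A match is a description of the sequence and was not tested for binding.
MXD4: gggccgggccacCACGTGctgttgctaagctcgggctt
MNT: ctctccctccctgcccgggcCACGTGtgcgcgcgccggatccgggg
MLX: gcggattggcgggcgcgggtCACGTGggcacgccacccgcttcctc
LDHA: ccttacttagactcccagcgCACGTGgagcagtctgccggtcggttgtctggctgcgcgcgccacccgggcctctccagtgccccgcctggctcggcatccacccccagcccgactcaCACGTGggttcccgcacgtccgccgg
CDK4: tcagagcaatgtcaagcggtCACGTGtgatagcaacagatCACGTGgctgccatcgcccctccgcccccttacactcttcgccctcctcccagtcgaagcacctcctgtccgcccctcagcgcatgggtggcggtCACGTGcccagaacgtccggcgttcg

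The silencing and the libraries were checked before the members. NEK2 fell from 3438 ± 229 to 344.9 ± 54.4 normalized counts (mean ± SD, n = 3 per group), so that 10% remained. A normalized count is the number of reads on a gene divided by the size factor of its library, and the libraries held between 52625492 and 87454509 reads. Si-CTRL replicate 1 stood apart from the other control libraries, with a mean chi-square per gene of 75.8 and 79.6 against them, where the other pairs of libraries within a group gave 9.16 to 26.6. The defining markers VIM, CD44, AXL, CAV1 and ZEB1 had means of 4023 or more in these cells, while 4 of 7 luminal markers (ESR1, PGR, EPCAM and CDH1) had means under 10. Of the defining markers, ZEB1 (log2 fold change -0.82) and CD44 (-0.76) fell and CAV1 (0.69) rose, all 3 past both thresholds, while VIM (-0.18) and AXL (-0.20) did not pass. Of the 3 luminal markers tested, FOXA1 (1.16) and ERBB2 (0.53) rose, while GATA3 (-0.39) was lower and did not pass. The summed luminal list was at 3659 to 4841 in si-CTRL and 6073 to 6320 in si-NEK2, and 6 leukocyte and endothelial markers summed to 50.4 to 67.5 and 35.2 to 54.0. The part of any of these differences in the results below was not tested.

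Of the 10 members, MYC and MXI1 were regulated in si-NEK2 cells, both downwards, where regulated means a fold change of at least 1.5 at a p-value no higher than 0.05. MYCN was not detected and the other 9 were tested, so that 2 of 9 (22.2%) were regulated, as were 22.5% of the 18717 genes tested. Both were lower, as were 14.3% of all genes, and none was higher, as were 8.23% of all genes. A gene is said to have risen or fallen where the Benjamini-Hochberg adjusted p of limma over all genes was 0.05 or lower. By this measure MAX and MXD1 rose (21.8% of all genes did), MYC, MXI1 and MLX fell (21.3%), and MXD3, MXD4, MNT and MGA did not pass. Together 5 of 9 members (55.6%) passed, where 43.1% of all genes did. The groups did not overlap for the same 5 members, and for 55% of all genes. The median log2 fold change was 0.11 over the members and 0.01 over all genes. In bulk RNA, fewer cells with a transcript and less of it per cell cannot be told apart.

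**Figure D1:**
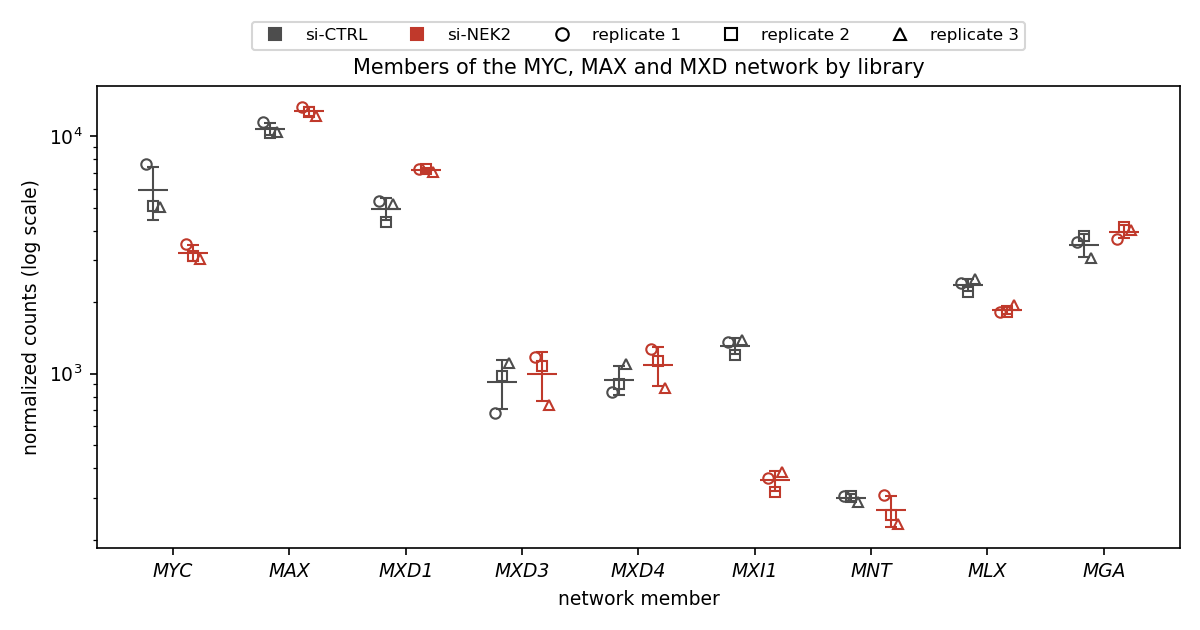
Normalized counts (log scale) of the 9 detected members, with 1 point per library, grey for si-CTRL and red for si-NEK2, the replicate by shape, and the mean with its SD as lines (n = 3). The si-NEK2 points lie below all si-CTRL points for MYC, MXI1 and MLX and above them for MAX and MXD1, and the circle of si-CTRL replicate 1 sits apart from the other MYC controls at 7621.

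MYC (GSHG0029250, chromosome 8 from 128747680 to 128753678, hg19), the activator of the network, had 7621, 5055 and 5034 normalized counts in si-CTRL replicates 1, 2 and 3 and 3529, 3140 and 3027 in si-NEK2 replicates 1, 2 and 3. Every si-NEK2 library was below every si-CTRL library, and si-CTRL replicate 1 was far above the other controls. The mean of MYC fell 1.83-fold, from 5903 ± 1488 to 3232 ± 263 (SD, n = 3), with a log2 fold change of -0.84 (standard error 0.15, 95% interval -1.19 to -0.50, limma adjusted p = 0.00237). Without si-CTRL replicate 1 the log2 fold change of MYC was -0.65 (standard error 0.07), still past both thresholds, and over all alternatives tried it lay between -0.97 and -0.65. Among all tested genes, 9.36% had a log2 fold change as low as that of MYC.

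MYCN, the neuronal paralog of MYC, was listed at 0 in every one of the 6 libraries, and a count of 0 allows up to 3 reads per library. MYCL, the remaining paralog, was detected at a low level, with 80.0, 65.9 and 76.1 normalized counts in si-CTRL and 115.4, 92.2 and 100.3 in si-NEK2. The MYCL groups did not overlap, and its log2 fold change was 0.47 (standard error 0.17, limma adjusted p = 0.0483), a rise that was lost in 11 of 17 alternatives.

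MAX (GSHG0009428, chromosome 14 from 65472819 to 65569413), the shared partner, had 11472, 10313 and 10406 normalized counts in si-CTRL and 13255, 12660 and 12208 in si-NEK2. All si-NEK2 libraries were above all si-CTRL libraries, but by a small margin. The mean of MAX went from 10730 ± 644 to 12707 ± 525, a log2 fold change of 0.24 (standard error 0.07, 95% interval 0.09 to 0.40, limma adjusted p = 0.0182). This rise did not hold in 8 of 17 alternatives. Under equal total scaling the log2 fold change of MAX was 0.12 (adjusted p = 0.197, limma), and without si-CTRL replicate 2 it was 0.22 (adjusted p = 0.0622, limma).

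The MXD antagonists went in different directions. MXD1 (GSHG0016536, chromosome 2 from 70142173 to 70170074), an antagonist that differentiating cells induce, had 5311, 4365 and 5175 normalized counts in si-CTRL and 7267, 7299 and 7076 in si-NEK2. The 3 si-NEK2 values of MXD1 lay close together and above all controls. Its mean rose 1.46-fold, from 4950 ± 511 to 7214 ± 120, just under the fold threshold, with a log2 fold change of 0.55 (standard error 0.08, 95% interval 0.36 to 0.74, limma adjusted p = 0.000933). This rise of MXD1 held in all 17 alternatives, and without si-CTRL replicate 1, at 0.60 on the log2 scale, it also passed the fold threshold, so that 3 members were then regulated.

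MXI1 (GSHG0003677, chromosome 10 from 111967356 to 112047123), also called MXD2, fell the most of the members. It had 1356, 1199 and 1383 normalized counts in si-CTRL and 362, 318 and 386 in si-NEK2. The groups were far apart, with the highest si-NEK2 library of MXI1 below all controls by a wide margin. The mean fell 3.69-fold, from 1313 ± 99.4 to 355 ± 34.5, so that 27.1% of MXI1 remained, with a log2 fold change of -1.88 (standard error 0.10, 95% interval -2.12 to -1.65, limma adjusted p = 7.14e-06). It stayed between -1.95 and -1.81 when any library was left out, and 224 genes (1.2% of those tested) had a log2 fold change as low.

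MXD3 (GSHG0033466, chromosome 5 from 176732501 to 176739292), an antagonist expressed in dividing cells, had 685, 974 and 1107 normalized counts in si-CTRL and 1179, 1074 and 739 in si-NEK2. MXD4 (GSHG0023077, chromosome 4 from 2249160 to 2263823) had 832, 907 and 1093 in si-CTRL and 1268, 1124 and 872 in si-NEK2. For both genes the groups overlapped, and si-NEK2 replicate 3 was lower than the other si-NEK2 libraries. The log2 fold change was 0.11 for MXD3 (95% interval -0.36 to 0.59, limma adjusted p = 0.694) and 0.20 for MXD4 (-0.15 to 0.54, limma adjusted p = 0.329), and that of MXD3 turned to -0.09 without si-CTRL replicate 1. These intervals hold both no change and, for MXD3, changes near 1.5-fold.

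MNT (GSHG0012980, chromosome 17 from 2287355 to 2304354), the antagonist found in most cell types, had 305, 306 and 287 normalized counts in si-CTRL and 309, 255 and 233 in si-NEK2. Si-NEK2 replicate 1 was level with the controls of MNT and the other si-NEK2 libraries were below them. Its log2 fold change was -0.18 (95% interval -0.47 to 0.11, limma adjusted p = 0.283).

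MGA (GSHG0033236, chromosome 15 from 41913753 to 42062141), the largest protein of the network, had 3585, 3813 and 3068 normalized counts in si-CTRL and 3683, 4157 and 4037 in si-NEK2. The groups overlapped. The log2 fold change of MGA was 0.19 (95% interval -0.03 to 0.40, limma adjusted p = 0.141).

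MLX (GSHG0012511, chromosome 17 from 40719078 to 40725257) had 2398, 2210 and 2494 normalized counts in si-CTRL and 1813, 1817 and 1943 in si-NEK2, with no overlap. Its mean fell 1.27-fold, from 2367 ± 144 to 1857 ± 74.1, a log2 fold change of -0.35 (standard error 0.08, 95% interval -0.52 to -0.18, limma adjusted p = 0.00569), and the fall of MLX held in all 17 alternatives. Its partner MLXIP, also called MondoA, had 1309, 773 and 720 normalized counts in si-CTRL and 967, 990 and 956 in si-NEK2. Si-CTRL replicate 1 of MLXIP was above all si-NEK2 libraries and the other controls were below them. MLXIP had a log2 fold change of 0.11 (limma adjusted p = 0.686) with all libraries and of 0.38 (limma adjusted p = 0.00201) without si-CTRL replicate 1.

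**Figure D2:**
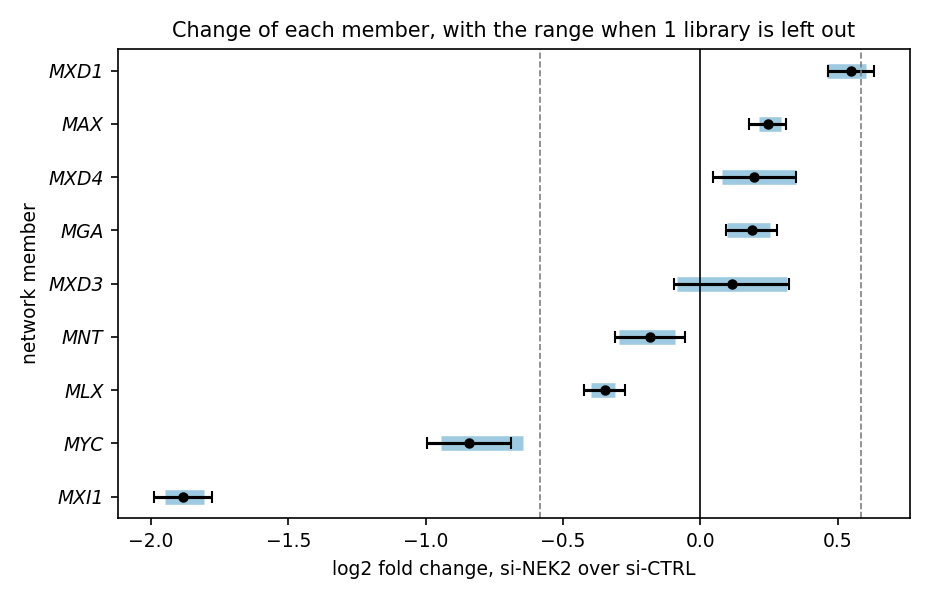
Log2 fold change of each of the 9 tested members, si-NEK2 over si-CTRL, as a point with its standard error as a bar, the pale band giving the range when 1 library is left out and the dashed lines the fold threshold of 1.5. MXI1 and MYC lie beyond the lower line over their whole band, the band of MXD1 crosses the upper line, and that of MXD3 spans 0.

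Some members share their place in the genome with other rows, and whether the counting used strand is not stated, so that shared reads are possible. For MXD3, MLX and MAX the genes named next lie on the opposite strand. MXD3 overlaps PRELID1 (mean of 20698 normalized counts, log2 fold change 0.25), MLX overlaps PSMC3IP (mean 1711, -0.41) and MAX overlaps the row of CHURC1 and FNTB (mean 3782, 0.28). These values went the same way as those of MXD3, MLX and MAX, and their part in them was not tested. MNT overlaps a row with no symbol with a mean of 384.5 and a log2 fold change of -0.94, and MGA overlaps one with a mean of 124.3 and -0.10. The strand of these rows with no symbol is not given here. The rows that overlap MYC and MXI1 had means of at most 0.832 and of 0, and MXD1 and MXD4 overlap none.

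Levels were compared between members per length, as reads divided by the exon length and by the library total (RPKM), a scale that so differs somewhat from normalized counts. The exon lengths come from GENCODE (GRCh38), whereas the reads were counted on FAST DB genes (hg19). The order of different genes rests on these lengths, and its dependence on them was not tested. In si-CTRL the level was highest for MAX, at 39.9 ± 2.28 RPKM (SD, n = 3), and then for MYC at 30.0 ± 7.47. MLX at 13.9 ± 0.748 and MXD1 at 13.4 ± 1.30 followed and overlapped each other. MXI1 (4.94 ± 0.339), MXD3 (4.27 ± 0.998), MXD4 (3.55 ± 0.493) and MGA (3.51 ± 0.406) lay close together, each overlapping the next, and MNT was at 0.914 ± 0.0374. MAX was above MYC in every si-CTRL library, and their ranges met only because MYC in replicate 1, at 38.6, reached the lowest MAX value of 38.5 in replicate 3.

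In si-NEK2 the order of the levels changed for MXD1 and MXI1. MXD1, at 17.9 ± 0.248 RPKM, stood above MYC, at 15.0 ± 1.23, with no overlap between their libraries. In si-CTRL MYC was above MXD1 in every library. The nearest si-NEK2 libraries were at 17.6 for MXD1 and 16.4 for MYC, so that other exon lengths could change the order of these genes. MXI1, at 1.22 ± 0.124 RPKM, was below all libraries of MXD3 (4.23 ± 0.967), MXD4 (3.74 ± 0.686) and MGA (3.64 ± 0.220), whereas in si-CTRL it overlapped MXD3. MAX stayed first at 43.2 ± 1.77 RPKM, MLX was at 10.0 ± 0.428 and MNT last of those detected at 0.741 ± 0.109.

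The share of each MAX partner in the summed RPKM of MYC, MXD1, MXI1, MXD3, MXD4, MGA and MNT describes how transcripts for competing proteins were balanced. MYC made up 56.1%, 46.9% and 44.1% of the sum in si-CTRL and 33.3%, 31.2% and 32.4% in si-NEK2. MXD1 made up 20.9%, 21.7% and 24.2% in si-CTRL and 36.6%, 38.8% and 40.4% in si-NEK2. MXI1 made up 7.39%, 8.25% and 8.97% and then 2.53%, 2.34% and 3.06%. The groups did not overlap for these 3 partners, and in si-NEK2 MXD1 held a larger share than MYC in every library. Which gene held the larger share depends on the exon lengths used.

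The sum over the partners was 60.6 ± 7.28 RPKM in si-CTRL and 46.5 ± 2.88 in si-NEK2. By library it was 68.9, 55.2 and 57.7 in si-CTRL, highest in replicate 1, and 49.4, 46.6 and 43.6 in si-NEK2. RPKM divides by the library total, and under equal total scaling the median log2 fold change of all genes was -0.11. The part of this scaling in the lower sum was not tested. The ratio of MYC to MXD1 levels was 2.69, 2.17 and 1.82 in si-CTRL and 0.909, 0.805 and 0.801 in si-NEK2, a mean that was 2.65-fold lower. The ratio of MYC to MAX was 0.908, 0.670 and 0.661 and then 0.364, 0.339 and 0.339, which was 2.15-fold lower. Both of these ratios were highest in si-CTRL replicate 1, so that the fold differences of their means are larger with that library than without it. The ratio of MYC to MXI1 went the other way, from 7.58, 5.69 and 4.91 in si-CTRL to 13.2, 13.3 and 10.6 in si-NEK2, a mean that was 2.04-fold higher with no overlap. The ratio of MXD1 to MXI1 went from 2.82, 2.62 and 2.70 to 14.5, 16.5 and 13.2, a mean that was 5.43-fold higher. These shares and ratios are descriptions of RNA levels, and protein was not measured here.

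**Figure D3:**
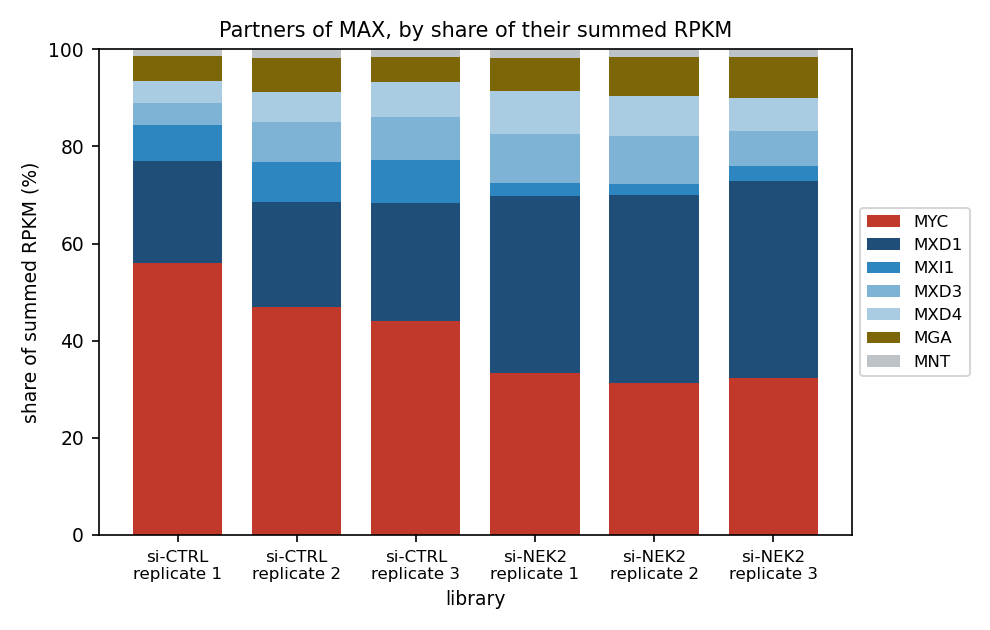
Share (%) of each MAX partner in the summed RPKM of the 7 partners, with 1 stacked bar per library. The MYC segment shrinks from between 44.1% and 56.1% in si-CTRL to between 31.2% and 33.3% in si-NEK2, the MXD1 segment widens to between 36.6% and 40.4%, and the MXI1 segment narrows to between 2.34% and 3.06%.

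The level of MYC in single libraries was set beside that of the other genes. Of 12915 genes with a symbol and a mean of at least 50 normalized counts, 499 had a Pearson r above 0.95 with MYC on the log2 scale over the 6 libraries. The closest were ROBO3 (r = 0.996), CAMKK1 (0.995), EHD4 (0.995), EGR1 (0.994) and TLE3 (0.994). EGR1, an immediate early transcription factor, had 1767, 1110 and 1055 normalized counts in si-CTRL and 618, 612 and 560 in si-NEK2, with a log2 fold change of -1.10. In each of these 5 genes, as in MYC, si-CTRL replicate 1 was the highest library. The 6 points share their groups and that library, and the correlations are a description.

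Genes around the network were counted by lists, to be read against the 22.5% of all genes that were regulated and the 43.1% that rose or fell. With si-CTRL replicate 1 left out, 3976 of the 18717 genes were regulated, 4996 rose and 4344 fell. List counts without that library are to be read against these. Of 6 other network genes none was regulated (1 under quantile normalization), and MYCL and MYCBP, a MYC-binding protein, rose. Without si-CTRL replicate 1, 3 of them rose and 1 fell. MYCBP had a log2 fold change of 0.37 (limma adjusted p = 0.0136), lost in 4 of 17 alternatives, and its row also carries GJA9 and RRAGC. PVT1, the long noncoding RNA gene next to MYC, had 2106, 2173 and 2299 normalized counts in si-CTRL and 1947, 2008 and 1942 in si-NEK2. The PVT1 groups did not overlap, with a log2 fold change of -0.16 (limma adjusted p = 0.0969, and 0.0231 without si-CTRL replicate 1).

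Of 15 MYC coactivators and partners none was regulated (1 under upper quartile or equal total scaling), 4 rose, 3 fell and 8 did not pass, so that 46.7% passed where 43.1% of all genes did, with a median log2 fold change of 0.06. Without si-CTRL replicate 1, 6 rose and 3 fell. Of the 7 that rose or fell with all libraries, 4 had an adjusted p above 0.05 in at least 1 alternative. SMARCB1, a chromatin remodelling subunit that binds MYC, rose by 0.49 on the log2 scale, and CCNT1, the cyclin of the elongation kinase P-TEFb, rose by 0.46. CDK9, the kinase of that complex, fell by 0.54, and ZBTB17, the factor MIZ1 through which MYC represses genes, fell by 0.34, although its adjusted p reached 0.105 among the alternatives. Of 17 corepressors of MXD proteins and MGA, 1 was regulated, 7 rose, none fell and 10 did not pass, with a median of 0.11. The shares were 5.88% regulated and 41.2% risen or fallen, where all genes gave 22.5% and 43.1%. Without si-CTRL replicate 1, 8 of them rose and 1 fell.

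RING1, a ubiquitin ligase of Polycomb complexes that also works with MGA, had 2130, 2871 and 2798 normalized counts in si-CTRL and 4514, 4323 and 4077 in si-NEK2. Its groups were well apart, with a log2 fold change of 0.74 (standard error 0.11, limma adjusted p = 0.00104). RYBP (0.56), ARID4B (0.48), YAF2 (0.47), E2F6 (0.44), SAP30 (0.41) and L3MBTL2 (0.33) also rose, and RYBP, YAF2, E2F6 and L3MBTL2 are, like RING1, partners of MGA in its Polycomb complex. The ARID4B row also carries RBM34, and the limma adjusted p of SAP30 reached 0.0579 among the alternatives. Of the other MGA partners listed, PCGF6 was at -0.15, RNF2 at -0.01, TFDP1 at -0.01 and CBX3 at 0.06, and none of these passed. PCGF6 had 1099, 1766 and 1754 normalized counts in si-CTRL and 1402, 1380 and 1300 in si-NEK2. Si-CTRL replicate 1 of PCGF6 was below all si-NEK2 libraries and the other controls were above them. Its log2 fold change went down to -0.37 when 1 library was left out, and PCGF6 passed as fallen in at least 1 alternative. SIN3A, the scaffold that MXD proteins bind, had a log2 fold change of 0.17 (limma adjusted p = 0.151), and of 0.26 (limma adjusted p = 0.00426) without si-CTRL replicate 1.

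Of 16 genes that act on the stability of MYC protein, 3 were regulated, 8 rose, 5 fell and 3 did not pass, with a median of 0.20, and without si-CTRL replicate 1, 8 rose and 6 fell. The shares were 18.8% regulated and 81.2% risen or fallen, beside 22.5% and 43.1% of all genes, and the adjusted p of 8 of these 13 genes was above 0.05 in at least 1 alternative. FBXW7, the ubiquitin ligase subunit that marks phosphorylated MYC for degradation, had 1381, 1281 and 1323 normalized counts in si-CTRL and 759, 790 and 827 in si-NEK2. The FBXW7 groups were far apart, and its log2 fold change was -0.75 (standard error 0.08, limma adjusted p = 0.000147). STUB1, another ubiquitin ligase that acts on MYC, fell by 0.65 on the log2 scale (limma adjusted p = 0.000115), and SKP2, a ligase subunit that both degrades MYC and serves as its cofactor, rose by 0.63 (limma adjusted p = 0.000142). AURKA, the mitotic kinase that shields MYC proteins from FBXW7, rose by 0.26 (limma adjusted p = 0.00742), which was lost in 2 of 17 alternatives. CIP2A, an inhibitor of the phosphatase that destabilizes MYC, rose by 0.22 (limma adjusted p = 0.0313), which was lost in 10 of 17 alternatives.

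Genes that MYC is known to induce went in both directions. Of 49 tested, 6 (12.2%) were regulated, none of them upwards, 9 rose, 14 fell and 26 did not pass, with a median log2 fold change of 0.06. The share regulated was below the 22.5% of all genes, and the share that fell or rose was 46.9%, near the 43.1% of all genes. Of the 23 induced targets that fell or rose, 9 had an adjusted p above 0.05 in at least 1 alternative. Without si-CTRL replicate 1, 7 were regulated, 1 of them upwards, and 15 rose and 15 fell. Of all 18717 genes, 3976 were then regulated, 4996 rose and 4344 fell.

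Among genes of ribosome assembly, NCL, the nucleolar protein nucleolin, had 112929, 100516 and 101356 normalized counts in si-CTRL and 56430, 57887 and 62448 in si-NEK2, and NPM1, nucleophosmin, had 158785, 150342 and 156695 and then 88410, 90746 and 96056. Neither gene had overlapping groups. The log2 fold change was -0.83 (standard error 0.07, limma adjusted p = 6.23e-05) for NCL and -0.76 (standard error 0.06, limma adjusted p = 5.11e-05) for NPM1, and MRTO4, which acts in the assembly of the large ribosomal subunit, was at -0.73. Other listed genes of ribosome assembly went both ways. DDX21 (-0.41), RRP12 (-0.41), RRP9 (-0.35), RRS1 (-0.32) and MYBBP1A (-0.23) also fell. NOLC1 (0.39), NOP58 (0.32), NOP56 (0.25) and GNL3 (0.19) rose, and the rest did not pass. The calls of RRS1, MYBBP1A, NOLC1 and GNL3 were lost in at least 1 alternative. The NOP56 row also carries MIR1292, SNORD56 and SNORD86, and its adjusted p reached 0.205 among the alternatives.

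POLR3G, a subunit of RNA polymerase III, fell the most of the induced targets. It had 1161, 723 and 843 normalized counts in si-CTRL and 265, 309 and 293 in si-NEK2, with no overlap, and its log2 fold change was -1.62 (standard error 0.17, limma adjusted p = 0.000126). TERT, the catalytic subunit of telomerase, went from 150.9 ± 14.2 to 76.6 ± 9.94, a log2 fold change of -0.97 (limma adjusted p = 0.00144). TFAP4, a transcription factor, fell by 0.61 on the log2 scale, but only by 0.37 without si-CTRL replicate 1, below the fold threshold, and its adjusted p was above 0.05 in 5 of 17 alternatives.

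Metabolic targets differed among themselves. ODC1, the first enzyme of polyamine synthesis and a classical MYC target, had 33597, 29852 and 34199 normalized counts in si-CTRL and 28278, 28648 and 30998 in si-NEK2. The ODC1 groups overlapped, and its log2 fold change was -0.15 (limma adjusted p = 0.135). CAD, an enzyme of pyrimidine synthesis, fell by 0.25 on the log2 scale (limma adjusted p = 0.0266), which was lost in 5 of 17 alternatives.

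LDHA, the lactate dehydrogenase subunit whose promoter window above has 2 copies of CACGTG, had 74176, 72150 and 71393 normalized counts in si-CTRL and 104542, 106866 and 112772 in si-NEK2. Every si-NEK2 library of LDHA was far above the controls, and it rose by 0.57 on the log2 scale (standard error 0.06, limma adjusted p = 0.000166). CDK4, the cell cycle kinase whose window has 3 copies and whose row also carries MIR6759, had 10914, 15205 and 14077 in si-CTRL and 9045, 9559 and 9645 in si-NEK2. It fell by 0.50 (standard error 0.11, limma adjusted p = 0.0076), and here si-CTRL replicate 1 was the lowest control. LDHA and CDK4, whose windows both hold the motif, went in opposite directions. CDK4 was chosen after its value was seen, so that this pair describes no other target with the motif.

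Of 17 tested genes that MYC is known to repress, 6 were regulated, 3 in each direction, 6 rose, 4 fell and 7 did not pass, with a median of 0.05. Without si-CTRL replicate 1, 4 were regulated, 2 in each direction, and leaving out other libraries gave 4 to 6, while quantile normalization gave 3. The shares were 35.3% regulated and 58.8% risen or fallen, beside 22.5% and 43.1% of all genes. Of the 10 repressed targets that rose or fell, 4 had an adjusted p above 0.05 in at least 1 alternative. CDKN2B, an inhibitor of CDK4, had 1216, 1352 and 1515 normalized counts in si-CTRL and 5278, 5184 and 4710 in si-NEK2, and CDKN1A, another cyclin-dependent kinase inhibitor, had 6000, 5526 and 5967 and then 1881, 1846 and 1850. Both were clear of overlap but in opposite directions. The log2 fold change was 1.90 (standard error 0.09, limma adjusted p = 4.58e-06) for CDKN2B and -1.65 (standard error 0.07, limma adjusted p = 2.39e-06) for CDKN1A.

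TXNIP, a regulator of glucose uptake that MLXIP and MLX induce, rose by 0.65 on the log2 scale (limma adjusted p = 7.43e-05), and CCNG2, an inhibitory cyclin, rose by 0.59 (limma adjusted p = 0.00444) but by 0.48 without si-CTRL replicate 1, below the fold threshold. CDKN1C fell by 0.69 (limma adjusted p = 0.0405), which was lost in 8 of 17 alternatives. KLF2, a transcription factor, had 276, 148 and 338 normalized counts in si-CTRL and 154, 157 and 58.7 in si-NEK2, which overlapped. Its log2 fold change was -1.09 with a limma adjusted p of 0.0606, so that KLF2 counts as regulated only by its unadjusted p.

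**Figure D4:**
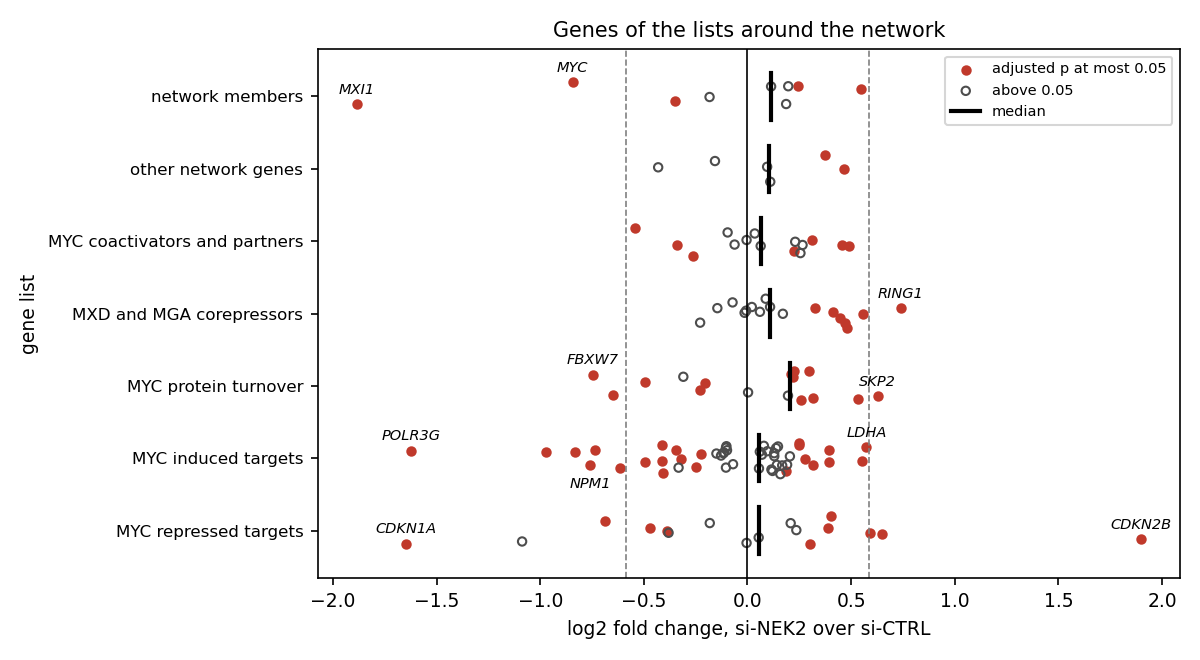
Log2 fold change, si-NEK2 over si-CTRL, of each tested gene of the members and of the 6 lists around them, filled where the limma adjusted p was 0.05 or lower, with the list median as a black bar and dashed lines at a fold change of 1.5. The list medians lie between 0.05 and 0.20, with single genes such as MXI1, POLR3G, CDKN1A and CDKN2B far from them.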

How the data were processed

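RNA-seq of MDA-MB-231 cells, 3 libraries per group, was analysed. The authors deposited 1 signal value per gene and library, namely the gene's reads after division by the library's size factor from DESeq2. Per the submitters' processing notes STAR 2.4.0 and hg19 were used, with FAST DB genes. The counter and its strand setting are not given in the sources used here. Each value was a whole multiple of 1 read (100% of values, tolerance 0.01 reads), 1 read being worth 0.818 to 1.25 normalized counts.

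The 18717 genes with 10 or more normalized counts on average were tested with limma 3.58.1 (R 4.3.3, lmFit, eBayes with trend) on log2(value + 1), a scale that understates changes of low genes. All adjusted p-values are Benjamini-Hochberg values over all genes tested. The scripts were tested on simulated data. Few genes changed in those simulated data and no library stood apart, so that the test does not cover these features of the real libraries. RPKM used recovered reads and the exon union of GENCODE basic transcripts (GRCh38). Whether genes with and without CACGTG differ was not compared, since 74.2% of tested genes with a symbol had a promoter entry.

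The members and lists were chosen with earlier results of these data known. Named were the members, the 3 largest changes of each list past both thresholds (mean of at least 50), a fixed set (ODC1, NCL, NPM1, CAD, LDHA, CDKN1A, FBXW7, AURKA, CIP2A, MLXIP, PVT1, SIN3A) and the 5 genes closest to MYC. Other genes, CDK4 among them, were named after their values were seen. NDRG2 was not analysed here. Alternatives were other pseudocounts (0.1 and 5), other filters (none, and 50 or more on average), scaling by upper quartile, by equal total or by quantiles, no trend, a replicate block, each library left out, edgeR 4.0.16 and DESeq2 1.42.0 on the recovered reads and, for counts, adjusted p-values or a fold change of at least 2.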

Additional observations from a re-analysis of the deposited data

How the results depend on the processing

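MYC, MXD1, MXI1 and MLX kept their direction and their side of the adjusted p of 0.05 in all 17 alternatives, with MXI1 between -1.95 and -1.81 and MYC between -0.94 and -0.65 when 1 library was left out. At a fold change of at least 2, 1 member (MXI1) and 1 induced target (POLR3G) were regulated. MXD3 turned to -0.014 under equal total scaling, -0.086 without si-CTRL replicate 1 and -0.021 without si-NEK2 replicate 1 (0.32 at most, without si-NEK2 replicate 3), and MLXIP turned to -0.018 under equal total scaling and -0.051 without si-CTRL replicate 3 (0.38 at most, without si-CTRL replicate 1). The causes were not tested. With libraries scaled to an equal total, the median of all genes was -0.11 and the split of regulated genes went from 1541 higher and 2672 lower to 942 and 3474. Quantile normalization gave 1827 and 2154. MAX, at 0.12 and 0.11 under these scalings, did not pass there. Between 2 and 3 members and 6 and 7 induced targets were regulated without 1 library.

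Deviations of same-numbered samples from their group means correlated at -0.09, 0.05 and -0.15, and no sample correlated best with its own number. Deviations from a mean of 3 samples depend on each other, so that these values cannot decide whether the replicate numbers pair the samples. With the replicate number as a block, 2 members were regulated, and 4084 genes were regulated in place of 4213. MYC was then at -0.84 with a standard error of 0.10, against 0.15 without the block. Depth limits what can be said of MYCN, for which 0 reads allow up to 3 expected reads in a library taken alone.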
